A study of Homo sapiens with 14 samples.

Results

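The accessible chromatin around 10 genes of the BCL2 family was described in 2 multiple myeloma (MM) cell lines, MM.1S and RPMI8226. The genes were BCL2, MCL1, BCL2L1, BCL2A1, BAX, BAK1, BCL2L11, BBC3, PMAIP1 and BMF, that is, 10 of the 20033 protein-coding genes examined. A peak was counted for a gene when it overlapped the gene body or the 50 kb on either side of it in the GENCODE annotation of hg38, a span called the window of the gene. The windows held 114 of the 72802 reference peaks of MM.1S and 140 of the 79969 reference peaks of RPMI8226.

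The study asked how bone marrow stromal cells (BMSCs) change the regulome of MM cells, and measured accessibility by ATAC-seq, in which a transposase inserts adapters into open DNA. MM cells of both lines were cultured alone (MONO), in an upper transwell over the human stromal line HS5 (TSW), or in contact with HS5 in the lower chamber (CO), and MM cells were sorted before the assay. MM.1S had 3 MONO, 3 TSW and 3 CO libraries, and RPMI8226 had 1 MONO, 2 TSW and 2 CO libraries. Each line is a single cell line, no genetic change or drug separated the groups, and the study noted a small carry-over of HS5 cells in the sorted CO cells. A reference peak is a region called in at least 3 libraries of a line, whatever their culture condition. The deposited list of each line gives 1 number per peak, read here as its support, the number of libraries with the peak, which runs to 9 in MM.1S and to 5 in RPMI8226. Neither list holds read counts or a value for a single library. No accessibility can therefore be compared between MONO, TSW and CO, and there are no replicates of a list. Read totals of the libraries are listed in the supplement of the study and differ between libraries, they are not used here, and their part in the support of a peak was not tested. Intervals below are 95% intervals (Wilson for a share, Newcombe for a difference of shares). They cover counting error over peaks only, and neighbouring peaks of 1 window are not independent.

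Proteins of the BCL2 family decide whether the outer membrane of the mitochondrion is opened, the step that commits a cell to apoptosis. BCL2, MCL1, BCL-XL (from BCL2L1) and BFL-1 (from BCL2A1) hold the membrane closed, BAX and BAK (from BAK1) form the pores, and the BH3-only proteins BIM (from BCL2L11), PUMA (from BBC3), NOXA (from PMAIP1) and BMF bind the survival proteins and free or activate the pore formers. MM cells are known for their dependence on MCL1, and some also on BCL2 or BCL-XL. An accessible promoter or distal element near such a gene is a place where its transcription can be regulated, but a peak in a window need not act on that gene.

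The sequences below are those of hg38, not of the cell lines, and are given for the regions on which the results turn, with letters that match a searched motif in capitals. The first set holds 2 start sites. The upstream stretches of BCL2A1 (chr15:79971197-79971446, minus strand) and BCL2L11 (chr2:111120664-111120913, plus strand) are from the RefSeq promoters of GRCh38.p14. The BCL2A1 stretch is shown because its peak had partial support in MM.1S, with capitals that match ISRE and then ATF::CEBP. The BCL2L11 stretch holds the FOXO letters.
BCL2A1 start site: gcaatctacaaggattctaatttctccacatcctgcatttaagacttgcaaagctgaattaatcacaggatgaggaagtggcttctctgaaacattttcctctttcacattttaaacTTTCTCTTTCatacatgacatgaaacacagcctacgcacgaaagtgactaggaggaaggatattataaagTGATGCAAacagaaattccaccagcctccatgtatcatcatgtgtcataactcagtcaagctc
BCL2L11 start site: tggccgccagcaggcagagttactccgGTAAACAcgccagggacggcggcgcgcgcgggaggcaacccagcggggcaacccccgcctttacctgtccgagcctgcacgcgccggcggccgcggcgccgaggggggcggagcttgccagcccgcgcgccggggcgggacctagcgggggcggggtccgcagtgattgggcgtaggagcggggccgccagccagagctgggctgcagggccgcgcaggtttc

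The second set holds the centres of distal peaks on the plus strand, each 200 bp long. The MCL1 centres lay 32.1 kb (chr1:150611575-150611774) and 25.3 kb (chr1:150604775-150604974) upstream of the start site, in peaks shared by both lines, and hold AP-1, the nearer one together with ATF::CEBP. The BCL2L11 centre lay 20.3 kb upstream (chr2:111100507-111100706) and holds AP-1, and the BMF centre lay 7.05 kb upstream (chr15:40115829-40116028) and holds ATF::CEBP. Both were the nearest distal peaks to their gene that all libraries of both lines shared.
MCL1 32.1 kb upstream: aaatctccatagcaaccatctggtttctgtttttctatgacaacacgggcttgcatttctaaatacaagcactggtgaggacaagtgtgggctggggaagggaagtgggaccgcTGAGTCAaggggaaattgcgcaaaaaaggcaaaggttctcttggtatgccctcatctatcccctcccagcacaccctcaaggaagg
MCL1 25.3 kb upstream: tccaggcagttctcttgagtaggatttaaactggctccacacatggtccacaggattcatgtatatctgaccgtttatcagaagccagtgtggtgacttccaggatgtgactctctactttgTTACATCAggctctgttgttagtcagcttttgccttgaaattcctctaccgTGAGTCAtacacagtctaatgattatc
BCL2L11 20.3 kb upstream: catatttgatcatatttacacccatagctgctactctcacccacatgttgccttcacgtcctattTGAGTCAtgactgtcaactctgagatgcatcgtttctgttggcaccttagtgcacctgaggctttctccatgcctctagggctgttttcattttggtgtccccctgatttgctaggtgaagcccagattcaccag
BMF 7.05 kb upstream: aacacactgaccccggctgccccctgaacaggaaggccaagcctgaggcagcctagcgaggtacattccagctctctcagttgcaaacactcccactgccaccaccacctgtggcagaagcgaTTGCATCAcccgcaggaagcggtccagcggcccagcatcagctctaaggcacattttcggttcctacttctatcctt

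The third set comes from distal peaks found in 1 line. The BCL2L1 centre (chr20:31692240-31692439, plus strand) is that of the widest distal peak of that gene that only MM.1S had, and it matched no searched motif. The other 2 are from RPMI8226 alone, on the plus strand. One BCL2A1 centre lay 6.39 kb upstream (chr15:79977491-79977690), with adjoining AP-1 and NF-kB letters. The other lay 5.17 kb downstream of the start site (chr15:79965926-79966125), with overlapping STAT3 and NF-kB letters. The peak around this centre was 222 bp wide with a support of 4 of 5, so it could lack the MONO library. The centres with matches to 2 motifs were chosen after their values were seen.
BCL2L1 30.5 kb downstream: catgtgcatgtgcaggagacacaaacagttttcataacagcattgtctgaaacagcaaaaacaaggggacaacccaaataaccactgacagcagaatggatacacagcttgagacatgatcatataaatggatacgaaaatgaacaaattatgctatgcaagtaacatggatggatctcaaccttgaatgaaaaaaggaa
BCL2A1 6.39 kb upstream: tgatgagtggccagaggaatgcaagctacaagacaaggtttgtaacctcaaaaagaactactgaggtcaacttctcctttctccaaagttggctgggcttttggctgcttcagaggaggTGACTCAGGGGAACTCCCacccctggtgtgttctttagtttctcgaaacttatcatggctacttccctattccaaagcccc
BCL2A1 5.17 kb downstream: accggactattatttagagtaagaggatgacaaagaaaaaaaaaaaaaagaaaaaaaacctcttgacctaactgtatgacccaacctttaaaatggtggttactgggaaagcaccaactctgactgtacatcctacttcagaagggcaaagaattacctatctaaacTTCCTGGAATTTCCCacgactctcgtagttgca

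The promoters of the 10 genes were open in both lines with few exceptions. Peaks that reached within 2500 bp of an annotated start site were counted as promoter peaks, and the rest as distal. In MM.1S, 9 of the 10 genes had a peak at one of their own start sites that all 9 libraries shared, against 69.2% of all protein-coding genes. The exception was BCL2A1, with a support of 5. In RPMI8226, 10 of the 10 genes had an own promoter peak in all 5 libraries, against 66.5% of all protein-coding genes. With a narrower span of 500 bp around the canonical start site, 10 of 10 genes had a peak in MM.1S and 9 of 10 in RPMI8226, against 65.3% and 58% of all protein-coding genes. BBC3 was the gene without one.

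The windows of the 10 genes held more peaks than the typical gene window. The median was 11.5 peaks per window in MM.1S and 12 in RPMI8226, against 6 and 7 over all protein-coding genes. It was 7 and 8 for 11 further genes of the family, near the value of all genes. For 8 plasma cell markers it was 11 and 11, so the larger numbers were not particular to the 10 genes. Per 100 kb of window the medians were 8.85 and 9.98 peaks, against 4.22 and 4.42. The span of the members ran from 3.63 (BCL2A1) to 10.7 (BBC3) peaks per 100 kb in MM.1S. In RPMI8226 it ran from 6.71 (BCL2L11) to 17.7 (MCL1). Of the 21 RPMI8226 peaks of MCL1, 13 were promoter peaks of other genes, and 6 had the start site of MCL1 as the nearest coding one. RPMI8226 had the larger number of peaks at 6 of the 10 genes, against 43% of all protein-coding genes.

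**Figure D1:**
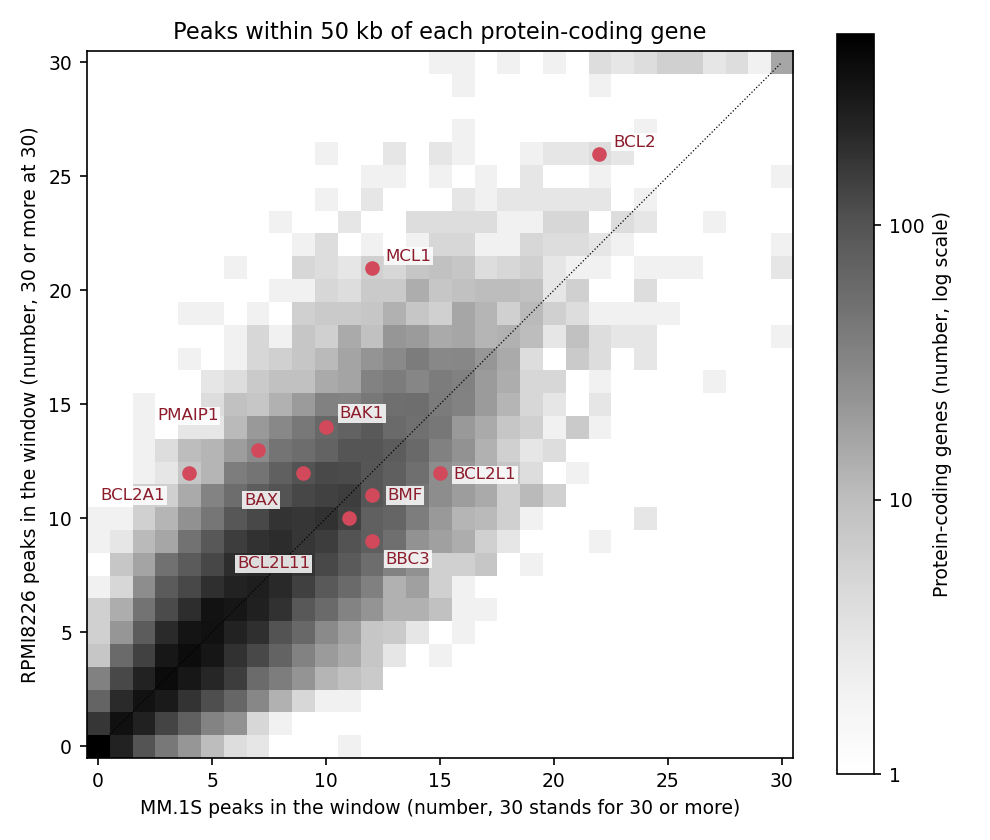
Number of reference peaks in the window of each protein-coding gene, MM.1S on the x axis and RPMI8226 on the y axis. The grey scale gives the number of genes per square on a log scale, red points are the 10 BCL2 family genes and the dotted line marks equal numbers. BCL2A1 sits farthest to the left among the members, with 4 MM.1S and 12 RPMI8226 peaks.

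Most peaks near these genes were shared between the lines. Shared peaks are those with at least 1 bp in common with a peak of the other line, and all others are called line-only. In MM.1S 85 of 114 peaks were shared, or 74.6% (65.9 to 81.7%), against 66.2% of the peaks in the windows of all protein-coding genes. In RPMI8226 94 of 140 were shared, or 67.1% (59.0 to 74.4%), against 65.2%. Both intervals held the value of all windows. Joined into regions, a count added after the values were seen, the peaks made 160 accessible regions, of which 85 were open in both lines, 29 in MM.1S only and 46 in RPMI8226 only.

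Sharing was more frequent at promoters. In MM.1S 44 of 50 promoter peaks (88.0%) and 41 of 64 distal peaks (64.1%) were shared, a difference of 23.9 percentage points (8.04 to 37.7). Over all coding gene windows the same difference was 11.5 points. In RPMI8226 54 of 71 promoter peaks (76.1%) and 40 of 69 distal peaks (58.0%) were shared, a difference of 18.1 points (2.51 to 32.6), against 22.2 points over all windows. Both intervals of the members lay above 0 and both held the value of all windows. The RPMI8226 difference was smaller under a stricter rule for sharing, though still within the interval given for it. When the overlap had to cover 50% of both peaks, the differences were 22.0 points in MM.1S and 7.19 points in RPMI8226, given without intervals. Promoter peaks, those of neighbouring genes included, made up 43.9% of the MM.1S peaks and 50.7% of the RPMI8226 peaks, against 44.5% and 41.6% over all windows. The RPMI8226 interval (42.5 to 58.9%) lay just above the value of all windows. With start sites of coding genes only the RPMI8226 share was 37.1%, and no share over all windows was computed under that rule.

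Most peaks had full support. Of the MM.1S peaks 73 (64.0%, 54.9 to 72.3%) were called in all 9 libraries, against 54.5% over all windows. Of the RPMI8226 peaks 96 (68.6%, 60.5 to 75.7%) were called in all 5, against 65.8%. The MM.1S interval lay just above the value of all windows and the RPMI8226 interval held it. Peaks of all libraries were shared in 84.9% of cases in MM.1S and 80.2% in RPMI8226, whereas peaks of fewer libraries were shared in 56.1% and 38.6%. The shares over all windows were near these, at 82.1% and 77.0% for peaks of all libraries and 47.1% and 42.6% for the rest. Since each MM.1S condition had 3 libraries, the 93 MM.1S peaks with a support of 7 or more were called in every condition. The other 21 (18.4%) could lack every MONO library, against 25.7% over all windows. In RPMI8226, with 1 MONO library, 44 peaks (31.4%) could lack MONO, against 34.2%. Which libraries a peak came from is not recorded in the lists.

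**Figure D2:**
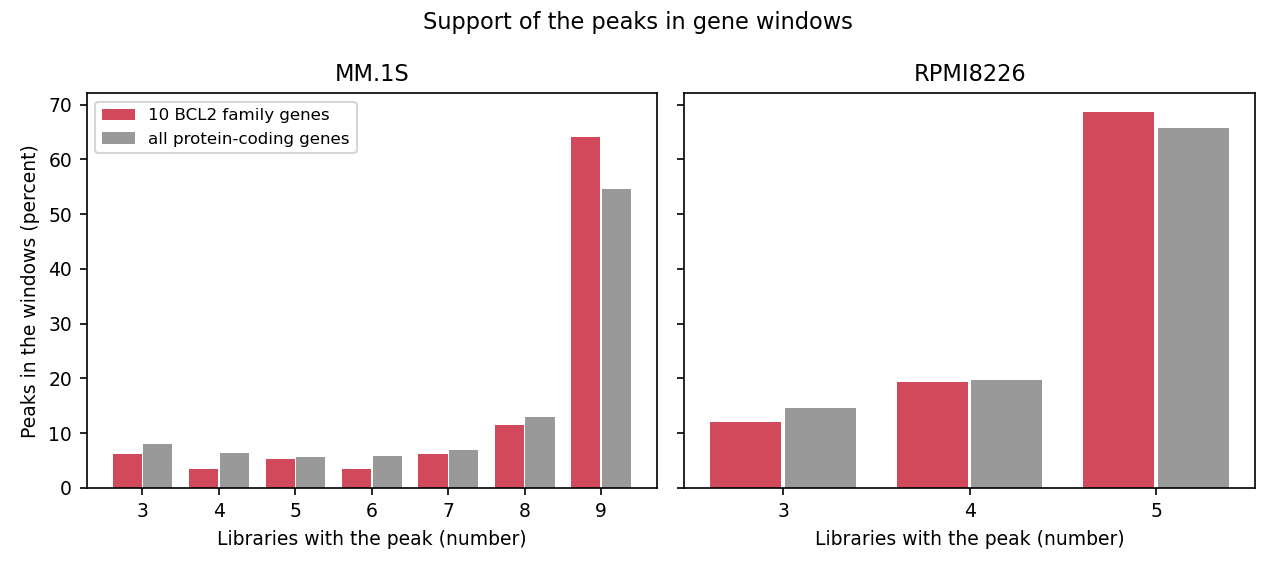
Share of peaks (percent) by the number of libraries with the peak, for the windows of the 10 BCL2 family genes (red) and of all protein-coding genes (grey). The tallest bars are the peaks of all 9 MM.1S libraries (64.0% against 54.5%) and of all 5 RPMI8226 libraries (68.6% against 65.8%).

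Among peaks that paired one to one between the lists, the MM.1S peak was the wider one in 65 of 78 pairs (83.3%, 73.5 to 90.0%), with median widths of 661 and 487 bp. Over all 44631 such pairs of the lists the share was 81.6%. The narrower RPMI8226 peaks also came in pieces, since 7 regions that were 1 peak in MM.1S were 2 or more peaks in RPMI8226 and 0 regions were split the other way. The part of width and splitting in the peak numbers of single genes was not tested.

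**Figure D3:**
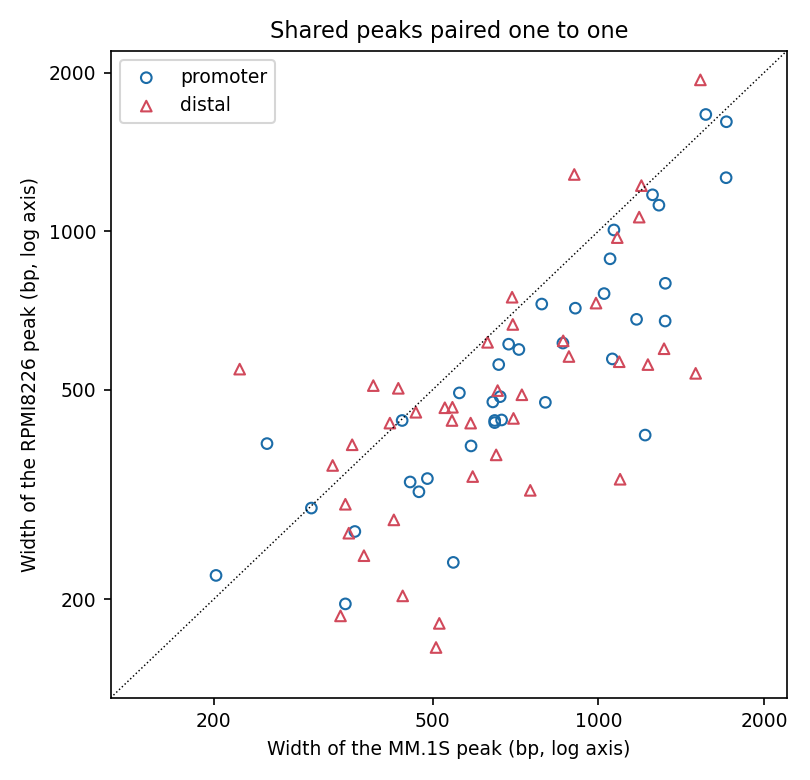
Widths (bp, log axes) of the 78 MM.1S and RPMI8226 peaks near the 10 genes that overlapped one to one. Circles are promoter peaks, triangles distal peaks, and the dotted line marks equal width. Points below the line, 65 of 78, are wider in MM.1S.

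The prosurvival genes differed from one another in how far the lines shared their elements. BCL2, the target of venetoclax, has the longest gene body of the 10 genes (197 kb) and held 22 MM.1S and 26 RPMI8226 peaks. In each line 14 were shared, and of 34 joined regions 14 were open in both, 8 in MM.1S only and 12 in RPMI8226 only. The start-site peak (chr18:63319695-63320910 in MM.1S) was 1216 bp wide in MM.1S and 410 bp wide in RPMI8226, with full support in both. In the long intron downstream of the start site RPMI8226 alone had peaks at 6.72, 8.02 and 26.6 kb downstream, of which the last was 791 bp wide and in all 5 libraries. Of the 8 MM.1S peaks found in MM.1S only, 3 were in all 9 libraries, at 181, 221 and 245 kb downstream, and others included an intronic 994 bp peak of support 8 at 103 kb. The one at 181 kb, 1697 bp wide (chr18:63137884-63139580), covered an exon beside an alternative start site, and RPMI8226 had there a 172 bp peak of support 3, which did not overlap it. Both lines shared a group of 4 peaks around alternative start sites between 157 and 164 kb downstream.

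MCL1, a short-lived survival protein, had no MM.1S peak without a counterpart. All 12 MM.1S peaks overlapped an RPMI8226 peak, and 16 of the 21 RPMI8226 peaks overlapped an MM.1S peak. Splitting entered the larger number of RPMI8226, since 1 MM.1S peak corresponded to 4 RPMI8226 peaks. That MM.1S peak was 2849 bp wide, lay over the end of the gene (17.2 kb downstream) and was also a promoter peak of ADAMTSL4-AS1. By joined regions the gene had 12 in both lines, 0 in MM.1S only and 5 in RPMI8226 only. The start-site peak was 1322 bp wide in MM.1S and 675 bp in RPMI8226, with full support in both. Upstream, within ENSA, both lines had distal peaks at 25.3, 32.1 and 34.2 kb in the MM.1S list. The element at 25.3 kb, whose sequence with AP-1 and ATF::CEBP letters is printed above, was 223 bp wide with a support of 4 of 9 in MM.1S and 547 bp wide with a support of 5 of 5 in RPMI8226. It was thus the only MCL1 peak of MM.1S that could lack all MONO libraries. The 2 elements farther upstream had full support in both lines, and RPMI8226 alone had a further peak at 40.4 kb, with CTCF letters.

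BCL2L1, which encodes BCL-XL, had 15 MM.1S and 12 RPMI8226 peaks, an order that turned within 100 kb (24 and 26). Of the 15 MM.1S peaks 8 were shared and 7 were found in MM.1S only, 5 of them distal and 3 of those in all 9 libraries. These 3 lay in the introns of the gene, at 16.8 kb (596 bp wide), 30.5 kb (1199 bp wide) and 46.9 kb downstream (650 bp wide). Of the 12 RPMI8226 peaks 3 were found in RPMI8226 only, and 0 of these had full support. The intronic elements at 13.9 and 23.3 kb downstream were shared with full support in both lines and were 1186 and 1502 bp wide in MM.1S. The start site was a single 1424 bp peak in MM.1S and 2 peaks, of 362 and 726 bp, in RPMI8226.

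BCL2A1, a target gene of NF-kB in lymphoid cells, had the most uneven window. MM.1S had 4 peaks and RPMI8226 had 12, and of all protein-coding genes with an MM.1S peak 2.39% had at least 3 times as many RPMI8226 as MM.1S peaks, a comparison added after the values were seen. All 4 MM.1S peaks were shared. The other 8 RPMI8226 peaks were found in RPMI8226 only, 7 of them distal and 4 in all 5 libraries, at 22.8 kb downstream and at 6.39, 7.81 and 39.0 kb upstream. The promoter itself was 250 bp wide with a support of 5 of 9 in MM.1S, and 395 bp wide with a support of 5 of 5 in RPMI8226. It was the only one of the 10 genes with no own promoter peak of full support in MM.1S. Its RefSeq promoter, printed above, had a GC content of 41.0% and 2 CpG dinucleotides in 300 bp, against medians of 58.7% and 14 over 35116 RefSeq promoters.

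**Figure D4:**
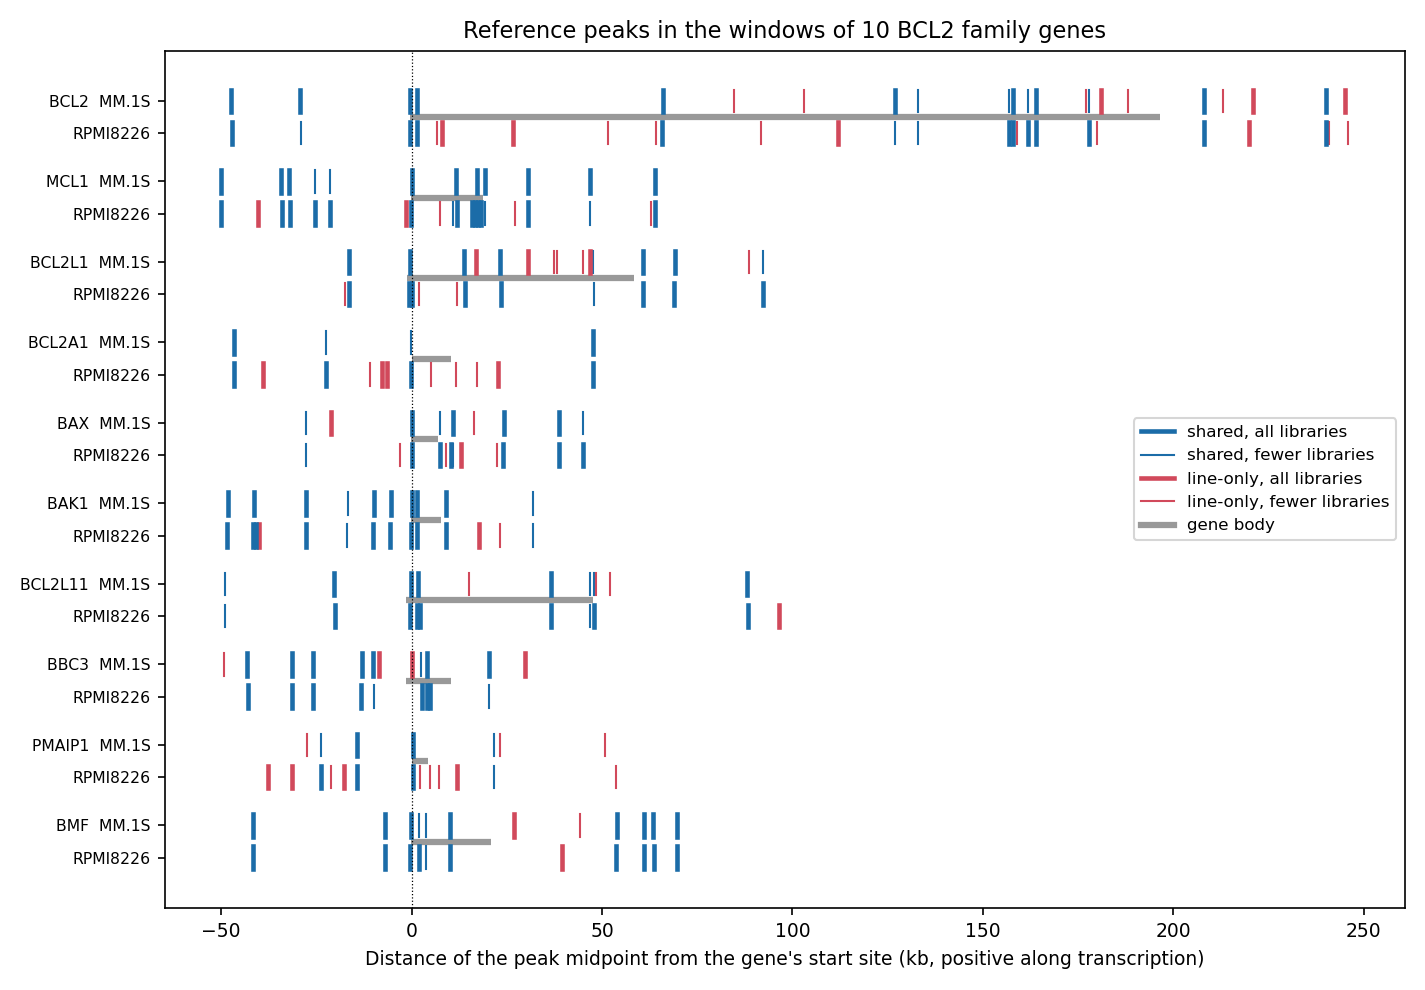
Midpoints of the reference peaks (ticks) of MM.1S and RPMI8226 by distance from the start site of each gene (kb, positive along transcription), with gene bodies in grey. Blue ticks are shared and red ticks line-only, and thick ticks were called in all libraries of the line. The red ticks of BCL2L1 lie mostly in MM.1S (7 of 10), and those of BCL2A1 all in RPMI8226 (8 of 8).

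The pore-forming genes shared most of their MM.1S peaks, 17 of 19, against 66.2% of the MM.1S peaks in all coding gene windows. Of the 19 peaks 13 were promoter peaks, a class that was shared in 72.6% of cases over all windows. In RPMI8226 19 of 26 peaks (73.1%) were shared, against 65.2% over all windows. BAX, with 5 other coding genes in its window, had 9 MM.1S peaks, of which 1 was its own promoter and 8 were promoter peaks of neighbours such as FTL, GYS1 and RUVBL2, so that MM.1S had 0 distal peaks there. RPMI8226 had 12 BAX peaks, of which 1 was distal, 2.99 kb upstream, with a support of 3. The BAX promoter peak was alike in the lines, 789 bp wide with a support of 9 of 9 and 727 bp wide with a support of 5 of 5. BAK1 had 10 MM.1S peaks, and all 10 were shared. Of its 14 RPMI8226 peaks 11 were shared. Upstream of BAK1, shared peaks lay 9.84, 16.8, 27.7 and 48.3 kb from the start site in MM.1S, and the start-site peak was 1060 bp wide in MM.1S and 572 bp wide in RPMI8226.

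Of the BH3-only genes, BCL2L11 and BMF were largely shared. PMAIP1 had more line-only peaks in RPMI8226 than in MM.1S, and BBC3 had line-only peaks in MM.1S alone. BCL2L11, whose product BIM binds every survival protein of the family, had 8 shared peaks among 11 in MM.1S and 9 among 10 in RPMI8226. Its start-site peak, with the FOXO letters of the sequence above, was 908 bp wide with full support in MM.1S and 714 bp wide with full support in RPMI8226. The distal elements at 20.3 kb upstream (1091 bp wide in MM.1S) and 36.7 kb downstream (1197 bp) were shared with full support in both lines. The 3 peaks found in MM.1S only had a support of 3 each. Of the 7 MM.1S peaks of all members at this minimum, 4 were in the BCL2L11 window. Altogether 5 of the 11 MM.1S peaks could lack MONO. Over all windows 25.7% of MM.1S peaks could lack MONO, and 8.02% had the minimum support of 3.

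BMF had 12 MM.1S peaks, of which 10 were shared, and 11 RPMI8226 peaks, of which 10 were shared. The shared ones included a distal group between 53.9 and 63.5 kb downstream, the element 7.05 kb upstream and the element 41.5 kb upstream. At 53.9 kb downstream RPMI8226 had the wider peak, 1937 bp against 1532 bp, and both had full support. Each line had 1 line-only distal peak in all libraries, at 26.8 kb downstream in MM.1S (863 bp wide) and at 39.5 kb downstream in RPMI8226 (687 bp wide).

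PMAIP1, which encodes NOXA, the partner of MCL1, shared 3 of its 6 distal MM.1S peaks and 3 of its 11 distal RPMI8226 peaks. Over all windows 61.1% of distal MM.1S peaks and 56.0% of distal RPMI8226 peaks were shared. The PMAIP1 window had no other coding gene and held 7 MM.1S and 13 RPMI8226 peaks, with 4 shared in each. The start-site peak was among the widest of the family, 1567 bp in MM.1S and 1665 bp in RPMI8226, with full support in both. Of the other 9 RPMI8226 peaks, all found in that line only, 8 were distal and 4 of these had full support, at 37.6, 31.5 and 17.7 kb upstream and 11.9 kb downstream. The 3 peaks of MM.1S only had supports of 3, 4 and 8.

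BBC3 encodes PUMA. In RPMI8226 its 9 peaks were all shared, against 65.2% over all windows. In MM.1S 66.7% of its 12 peaks were shared, near the 66.2% over all windows, and the other 4 were found in MM.1S only. One of these was the start-site peak (chr19:47230453-47231589), 1137 bp wide and in all 9 MM.1S libraries. The nearest RPMI8226 peak, in all 5 libraries, ended 2.47 kb downstream of the start site, and RPMI8226 had 0 peaks within 500 bp of it. Of all protein-coding genes 6.6% had a start-site peak in all MM.1S libraries and none in RPMI8226. This comparison was added after the values were seen. The promoter peaks inside the gene, around 2.54 and 4.11 kb downstream in MM.1S, were shared and had full support in RPMI8226. The remaining peaks of MM.1S only included 2 distal ones with full support, at 8.63 kb upstream and 29.9 kb downstream.

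**Figure D5:**
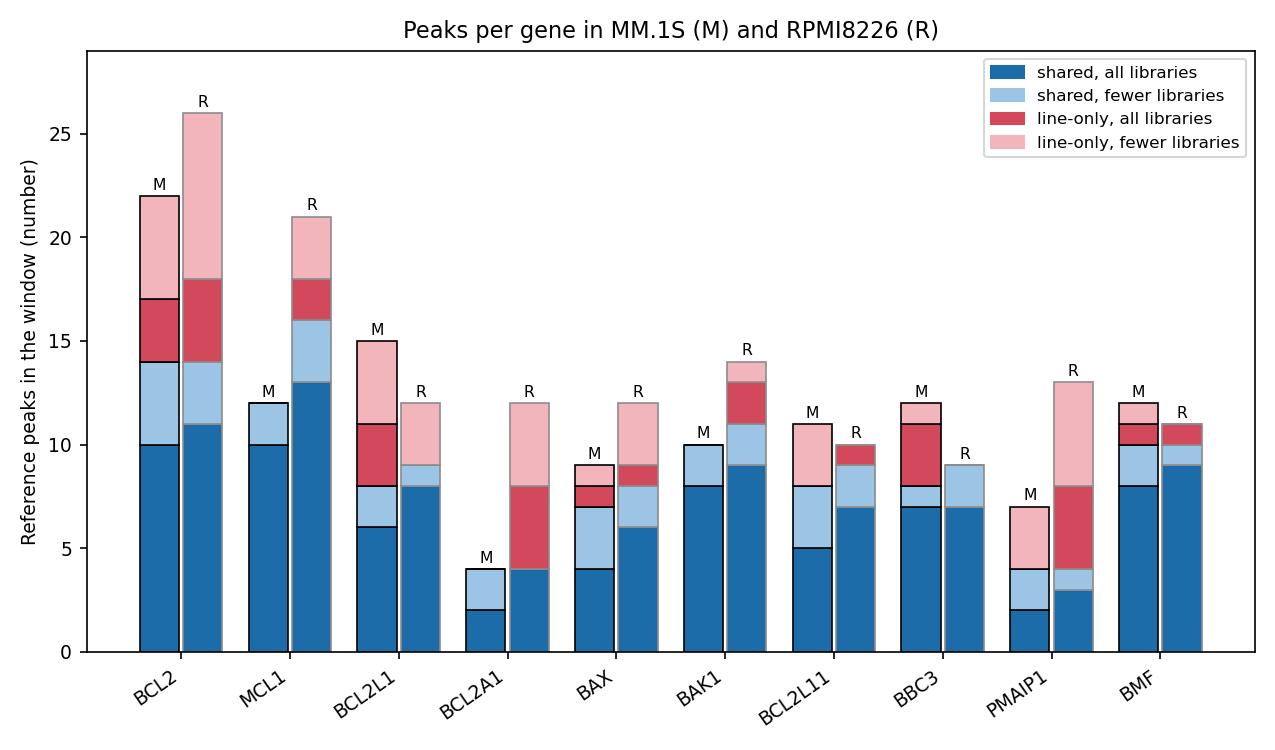
Number of reference peaks per gene window in MM.1S (M) and RPMI8226 (R), stacked by sharing (blue shared, red line-only) and support (dark all libraries, light fewer). MCL1, BCL2A1 and BAK1 have no red in MM.1S, and BBC3 has none in RPMI8226.

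By role, the shared share of the MM.1S peaks was 71.7% (58.4 to 82.0%) for the 4 prosurvival genes, 89.5% (68.6 to 97.1%) for the 2 pore formers and 71.4% (56.4 to 82.8%) for the 4 BH3-only genes. In RPMI8226 the shares were 60.6% (48.9 to 71.1%), 73.1% (53.9 to 86.3%) and 74.4% (59.8 to 85.1%). The intervals of the 3 roles overlapped in both lines.

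Motif letters were sought on both strands in the central 200 bp of the distal peaks, 64 in MM.1S and 69 in RPMI8226. They were AP-1 (TGACTCA or TGAGTCA, the site of JUN and FOS proteins), ATF::CEBP (TGATGNAA), STAT3 (TTCCNGGAA), ISRE (GAAANNGAAA, an interferon-responsive site) and FOXO (GTAAACA), with NF-kB, CTCF and p53 by their consensus. AP-1 letters stood in 3 MM.1S peaks (4.69%, 1.61 to 12.9%) and 10 RPMI8226 peaks (14.5%, 8.07 to 24.7%), against 9.17% and 17.0% of all distal peaks of the lists. When whole peaks were read instead, the members' shares were 18.8% and 20.3%. The share of all distal peaks was computed for the central 200 bp only, so these 2 values have no background. The 3 MM.1S peaks were those of MCL1 (2) and BCL2L11 (1), all shared, whereas 4 of the 10 RPMI8226 peaks were found in RPMI8226 only, 2 of them at BCL2A1. NF-kB letters stood in 6 MM.1S peaks (9.38%, against 4.32%) and 6 RPMI8226 peaks (8.7%, against 5.37%), with intervals of 4.37 to 19.0% and 4.05 to 17.7%. The first lay just above the value of all distal peaks and the second held it. BMF had 2 such peaks in each line, at 41.5 kb upstream and 61.0 kb downstream in the MM.1S list.

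ATF::CEBP letters stood in 3 MM.1S and 5 RPMI8226 peaks (4.69% and 7.25%, against 3.79% and 4.03%). The elements of BCL2 at 127 kb downstream, MCL1 at 25.3 kb upstream and BMF at 7.05 kb upstream held them in both lists. ISRE letters were in 1 MM.1S peak (1.56%, against 8.65%) and 3 RPMI8226 peaks (4.35%, against 7.48%), 2 of the latter upstream of PMAIP1. The MM.1S interval (0.276 to 8.33%) lay just below the value of all distal peaks, and the RPMI8226 interval (1.49 to 12.0%) held it. With whole peaks read, the MM.1S share of ISRE letters was 10.9%, a value without a background. No interval was corrected for the number of motifs and lists searched. STAT3 letters were in 0 MM.1S peaks and in 1 RPMI8226 peak, that of BCL2A1 printed above, against 0.605% and 0.645%. FOXO letters were in 2 and 1 peaks, against 3.72% and 4.69% of all distal peaks. CTCF letters were in 0 and 1, against 4.34% and 3.39%, and p53 letters in 0 and 0, against 0.145% and 0.151%. A count of 0 in 64 peaks allows a share of up to 5.66% (upper Wilson limit). Of the RefSeq promoters of all genes, 3.42% hold FOXO letters, 3.57% ISRE letters and 3.62% ATF::CEBP letters.

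The rest of the family was described in the same way. Of 11 further family genes, 10 had an own promoter peak in MM.1S and 9 in RPMI8226, against 76.8% and 71.8% of all protein-coding genes. In all libraries it was 8 and 7 of the 11, near the 69.2% and 66.5% of all protein-coding genes given above. BCL2L15 had one in neither line, and BCL2L10 had one in MM.1S only, with a support of 7 of 9. The promoters of BID, a BH3-only protein cut by caspase-8, and BOK, a relative of BAX, had full and partial support in MM.1S (9 and 7) and partial support in RPMI8226 (4 and 3). Of 12 further apoptosis genes, listed as downstream of the family and including CYCS, APAF1, CASP9 and XIAP, 12 had an own promoter peak in all libraries of both lines. Over all protein-coding genes it was 69.2% and 66.5%. BIRC3, a target of NF-kB that encodes cIAP2, had 11 MM.1S and 10 RPMI8226 peaks with 9 shared in each.

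The identity of the cells was checked by markers. Own promoter peaks were present for 8 of 8 plasma cell markers, among them SDC1, CD38 and IRF4, in both lines. SLAMF7 had a support of 4 of 5 in RPMI8226. Of 10 stromal markers 6 had an own promoter peak in MM.1S and 5 in RPMI8226. Over all protein-coding genes the shares were 76.8% and 71.8%, so such peaks are a weak check. Within 500 bp of the canonical start site 3 and 1 stromal markers had a peak, against 65.3% and 58% of all protein-coding genes. COL3A1, LUM, FAP and THY1, which encodes the CD90 used to remove stromal cells in the sort, had no promoter peak in either list. COL1A1 and PDGFRB had full support in both lines, PDGFRA had supports of 9 and 4, DCN of 8 and 4, COL1A2 of 6 and 3, and TWIST1 had full support in MM.1S and no promoter peak in RPMI8226. The part of carried-over HS5 cells in peaks with partial support was not tested.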

How the data were processed

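Omni-ATAC-seq had been run on 9 MM.1S and 5 RPMI8226 libraries, grouped from their titles. By the methods, the authors aligned reads to hg38 with Bowtie2, called peaks per library with MACS3 and kept peaks present in at least 3 libraries of a line. Versions, the calling threshold, a shift for the transposase and the joining of boundaries are not given in the sources used here. The number in the deposited lists has no header and was read as the count of libraries with the peak. Starts were read as 0-based. The lists record no depth per library. The supplement of the study lists read totals, which were not used here. No column was left unused (0).

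Windows, promoters and sharing were computed in Python 3.11.15 (pandas 2.3.3, numpy 2.4.6, pysam 0.24.0) with GENCODE 44, and the functions were tested on simulated intervals. The background was every protein-coding gene or every distal peak under the same rules. MCL1 had no entry among the RefSeq promoters. The p53 search took 2 adjacent consensus copies with at most 2 mismatches outside their cores. Named genes were the members, 11 further family genes, 12 downstream genes and marker lists. Named regions were own promoter peaks, the widest distal line-only peak in all libraries and the nearest distal peak shared by all libraries, and other peaks were described after their values were seen. Some genes and sequences are not reported here. The members and lists were chosen with earlier results of these data known. Alternatives were windows of 20 and 100 kb, peaks nearest to a member's start site, promoters of 1000 bp, coding start sites only, reciprocal overlap of 50%, support in all libraries, a width of at least the list median (536 and 362 bp) and motif searches over whole peaks.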

Additional observations from a re-analysis of the deposited data

How the results depend on the processing

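Of the alternatives to the pooled counts and shares, 76 stayed within the spread allowed (a factor of 1.5 for counts, the 95% interval for shares), 18 moved and 0 changed direction. With windows of 20 kb MM.1S had 74 peaks. Peaks nearest to a member's start site numbered 72 in MM.1S and 91 in RPMI8226. Promoters of 1000 bp gave 37.9% promoter peaks in RPMI8226, and coding start sites only gave 34.2% in MM.1S and 37.1% in RPMI8226. A reciprocal overlap of 50% lowered sharing to 59.6% in MM.1S and 48.6% in RPMI8226. The difference between promoter and distal sharing in RPMI8226 was then 7.19 points, which stayed within the spread allowed. Peaks of all libraries only numbered 73 in MM.1S and were shared in 84.9% (MM.1S) and 80.2% (RPMI8226), and this setting gives no value for the share in all libraries. Peaks of at least the median width numbered 73 in MM.1S and 86 in RPMI8226, with 82.2% and 82.6% shared, 53.4% promoter in MM.1S, and 86.3% and 89.5% in all libraries. These settings take fewer peaks or stricter rules by construction. Peaks per gene moved in 52 of the gene-wise alternatives and stayed in 108. BCL2A1 had 10 MM.1S and 19 RPMI8226 peaks within 100 kb, short of a 3-fold ratio. The order of the lines turned at BCL2L1 within 100 kb (24 MM.1S and 26 RPMI8226 peaks), with 9 and 9 at median width, at BCL2L11 within 100 kb (14 and 17), in all libraries and at median width (5 and 8 in each), and at BMF in all libraries (9 and 10). It became equal at median width for BCL2 (16 and 16) and BBC3 (7 and 7), and within 20 kb for BMF (6 and 6). Whole-peak searches moved 4 motif shares of MM.1S, AP-1 to 18.8%, ATF::CEBP to 14.1%, ISRE to 10.9% and FOXO to 10.9%, and kept 12. No whole-peak share was computed for all distal peaks. RPMI8226 had 0 peaks within 250 bp and within 1000 bp of the BBC3 start site and 1 within 2500 bp, windows chosen after seeing the data.

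No paired analysis was possible because the lists carry no values per library, and for the same reason no replicate could be left out. The precision is limited by 114 and 140 peaks and by library depths that the lists do not record, by the unequal number of libraries (9 and 5) behind the same minimum of 3, and by peak widths that differ between the lists as a whole.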
